A study of Homo sapiens with 6 samples.

Results

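The 10 genes described here encode the signalling route that runs from Gq-coupled receptors in uveal melanoma, the commonest primary cancer of the adult eye. They were chosen by name, with earlier results of these data known, as rows of the deposited gene table, and all 10 were found among its 58735 genes. They are the receptor gene CYSLTR2, the G protein alpha subunit genes GNAQ and GNA11, the phospholipase gene PLCB4, the protein kinase C genes PRKCD and PRKCE, RASGRP3, TRIO, ARF6 and PTK2. RNA was sequenced from Mum-2b, a cell line labelled as uveal melanoma. A group of 3 control libraries, labelled WT and titled NC, was set against 3 libraries of cells with NELFCD knocked down by a short hairpin RNA (shRNA). All knockdown titles carry the same hairpin number, so an effect of the target and an off-target effect of that hairpin cannot be told apart. Nothing in the labels says whether libraries of a group came from separate cultures, so the p-values may measure technical spread alone.

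In this pathway an activated receptor switches the alpha subunit to its GTP-bound state, and the alpha subunit turns on phospholipase C-beta. That enzyme splits a membrane lipid into inositol trisphosphate, which releases calcium, and diacylglycerol, which recruits protein kinase C and RasGRP proteins. The RasGRP step feeds the RAS to ERK kinase cascade. A parallel branch runs through the exchange factor TRIO to focal adhesion kinase and YAP, and the GTPase ARF6 moves the receptor and alpha subunit between membranes. Activating mutations of GNAQ or GNA11 are the usual early drivers of uveal melanoma, with mutations of CYSLTR2 or PLCB4 in some of the other tumours. The gene counts used here carry no information on mutations. NELFCD is part of the negative elongation factor, a complex that keeps RNA polymerase II paused close to promoters.

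Since that pause lies next to promoters, promoter windows were read from RefSeq (GRCh38.p14), 250 bases before to 50 after a start site, and 7 of the 10 genes had an entry, with 12 windows in all. Sequences are shown for TRIO, ARF6 and GNA11, each lower in the knockdown in all 3 replicate pairs (below) and each with a window start outside the gene as the deposited table bounds it. These 3 were chosen after their values were seen. The 250 bases before the start are given on the plus strand, 5′ to 3′, with motif matches in capitals.

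TRIO, chr5:14143092-14143341: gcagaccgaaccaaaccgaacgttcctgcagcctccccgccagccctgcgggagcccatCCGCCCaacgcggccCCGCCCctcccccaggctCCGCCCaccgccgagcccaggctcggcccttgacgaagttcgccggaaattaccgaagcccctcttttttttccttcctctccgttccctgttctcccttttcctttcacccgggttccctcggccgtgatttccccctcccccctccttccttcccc

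ARF6, chr14:49892832-49893081: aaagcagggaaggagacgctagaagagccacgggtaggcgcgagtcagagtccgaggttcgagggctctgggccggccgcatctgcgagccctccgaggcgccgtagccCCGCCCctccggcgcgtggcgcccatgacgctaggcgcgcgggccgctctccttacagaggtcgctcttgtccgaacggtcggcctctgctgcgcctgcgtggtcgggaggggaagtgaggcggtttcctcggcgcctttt

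GNA11, chr19:3094112-3094361: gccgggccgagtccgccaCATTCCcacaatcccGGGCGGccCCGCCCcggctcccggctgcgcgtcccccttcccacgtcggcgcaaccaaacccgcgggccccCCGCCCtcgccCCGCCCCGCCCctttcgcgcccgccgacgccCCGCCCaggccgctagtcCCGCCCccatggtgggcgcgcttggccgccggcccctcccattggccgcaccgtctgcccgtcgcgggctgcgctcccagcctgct

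The motifs searched on both strands were the GC box (GGGCGG), the TATA box (TATAAA), the AP-1 site (TGANTCA), the TEAD core (GGAATG) and the E-box (CACGTG). In the whole window of 300 bases TRIO had 3 GC box matches, ARF6 had 1 and GNA11 had 7, of which 2 overlap in the longest run of capitals. A GC box was present in 45.0% of all 35116 promoter windows and in 8 of the 12 windows of the members. The GNA11 window also held 1 match to the TEAD core, which 14.0% of all windows hold. The AP-1 site and the E-box matched none of the 12 windows, against 7.7% and 7.3% of all windows. The TATA box matched 2 of the 12, both at RASGRP3, against 11.5%. GC content was 66.3% for TRIO, 70.3% for ARF6 and 79.3% for GNA11, against a median of 58.7% over all windows. The PRKCD windows had 75.0%, 76.7% and 57.7%, the last below that median, and the PRKCE window had 64.7%. The CYSLTR2 window had 40.7%, and the 4 RASGRP3 windows had 39.7%, 40.0%, 50.3% and 43.7%. These are counts of letters and not measured binding sites.

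Depth was 14306733 to 16656630 counts per library, and 14844 genes passed the filter on low counts. NELFCD stood at 65.3, 88.2 and 83.4 CPM (read counts scaled to a common library total) in control replicates 1 to 3 and at 20.6, 37.4 and 40.2 CPM in knockdown replicates 1 to 3, which left 41.4% of the control mean. Replicate 1 of both groups stood apart from replicates 2 and 3, and 61.8% of the tested genes differed between them in edgeR. Melanocyte markers were low. Of 8 melanocyte marker genes 5 averaged under 1 CPM, among them SOX10, PMEL, TYR and DCT, and PAX3 had 0 counts, while the sum over the 8 was 7.49 to 10.7 CPM in controls and 7.59 to 18.2 CPM in knockdowns. The other 3 passed the filter, with means over the 6 libraries of 3.37 CPM for MITF, 4.65 CPM for TYRP1 and 1.20 CPM for MLANA, and none of these 3 passed the blocked test (adjusted p in edgeR 0.63, 0.22 and 0.22). The 5 epithelial markers summed to 685 to 1300 and 1050 to 1460 CPM, nearly all of it the simple keratins KRT8 and KRT18, with CDH1 and EPCAM near 0. The 5 endothelial markers summed to 125 to 165 CPM in controls and 54.2 to 57.9 CPM in knockdowns, nearly all of it CDH5, with VWF and TEK under 1 CPM. The 5 fibroblast markers summed to at most 2.05 CPM (DCN at 0) and the 5 leukocyte markers to at most 0.989 CPM (CD3E at 0). The part of the endothelial and keratin genes in the differences below was not tested. In such bulk RNA, fewer cells of a type and less RNA per cell cannot be told apart.

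Per length, the members fell into distinct levels. The authors' deposited FPKM, which divides by gene length and depth, averaged 52.9 for PLCB4 and 48.8 for ARF6 over the 6 libraries, then 26.5 for TRIO. GNAQ (17.1), GNA11 (16.5), PTK2 (15.4) and PRKCD (14.8) followed, and PRKCE was lower at 5.06. RASGRP3 averaged 0.0266 FPKM and CYSLTR2 was at 0. The median tested gene was at 4.56 FPKM, so 7 of the 10 lay well above it. The ARF6 libraries (32.2 to 56.3 FPKM) lay above all TRIO libraries (22.4 to 29.8), and those lay above all GNAQ libraries (15.5 to 18.3). GNAQ, GNA11 (10.8 to 19.1), PTK2 (13.6 to 16.8) and PRKCD (11.2 to 22.6) overlapped and their order is within their spread. PRKCE (3.26 to 6.15) lay below each of these 4. PLCB4 spanned 21.2 to 163 FPKM, so its place at the top rests on replicate 1.

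The leukotriene receptor CYSLTR2 (ENSG00000152207, chromosome 13, 48653711 to 48711226, hg38) had 0 counts in each of the 6 libraries. At these depths 0 counts allow a level of up to 0.18 to 0.21 CPM per library, taking 3 counts as the limit, and this covers counting error only. Its paralogue CYSLTR1 also had 0 counts in all libraries. RASGRP3 (ENSG00000152689, chromosome 2, 33436324 to 33564750), the diacylglycerol-activated exchange factor that links Gq signalling to RAS in uveal melanoma, had 5, 1 and 3 counts in control replicates 1 to 3 and 9, 1 and 8 in knockdown replicates 1 to 3. The groups overlapped, and so did the 95% Poisson intervals of the highest control library (0.11 to 0.79 CPM) and the highest knockdown library (0.282 to 1.17 CPM). Such an overlap is not a test of a difference, and these few counts do not settle whether the groups differed. Both genes failed the filter, so 8 of the 10 members were tested. All 4 RasGRP genes together summed to 0.344 to 0.804 FPKM per library, of which RASGRP1 took 77.9% to 96.6%.

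Without the replicate number in the model, edgeR called 0 of the 8 tested members and 0 of 14844 genes (0%). At an unadjusted p under 0.05 it had 0 of the 8 members and 954 of the 14844 genes tested. At that share over all genes, 0 of 8 is not a result about the members. DESeq2 without the block called 161 genes (1.08%) and 0 members. Libraries of the same number shared their deviations from the group means, but libraries of different numbers were not compared, and replicate 1 stood apart in both groups. The sharing therefore does not show that the other replicates are paired by number, and the labels state no pairing. A fit that adds the replicate number as a blocking term is given beside the fit without it, with the pairing as an assumption. With the block edgeR called 13.5% of all genes, 8.01% as lower and 5.48% as higher. Of the members 1 of 8 passed, TRIO, which fell. That share (12.5%) is near the background. The median log2 fold change of the 8 members was -0.16 with the block, against 0 over all genes tested. By sign alone 5 members were lower and 1 was higher in the knockdown in all 3 same-numbered pairs, where 26.9% and 25.8% of all tested genes were. Differences below are log2 fold changes, knockdown over control, with their standard error (SE), and adjusted p is edgeR's quasi-likelihood p with Benjamini-Hochberg adjustment over all genes tested.

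**Figure D1:**
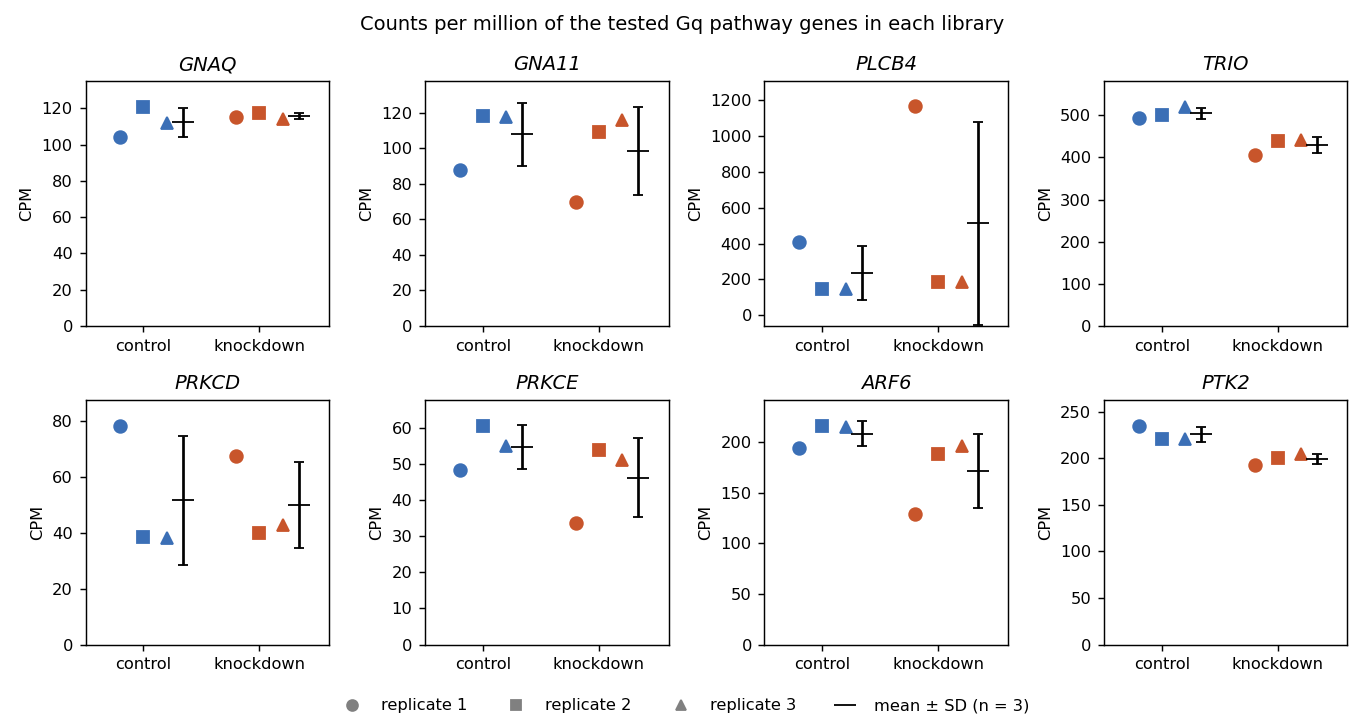
CPM of the 8 tested members in each library, controls in blue and knockdowns in orange, with the symbol giving the replicate number and the bar the mean ± SD of 3 libraries (linear axes, each with its own scale; the PLCB4 axis runs below 0 only to hold its SD bar). TRIO and PTK2 are the 2 of these 8 genes whose groups do not overlap, as held for 15.0% of all tested genes. Replicate 1 stands far from replicates 2 and 3 in PLCB4 and PRKCD.

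The alpha subunit genes GNAQ and GNA11 did not pass in the knockdown comparison. GNAQ (ENSG00000156052, chromosome 9, 77716087 to 78031458) encodes the Gq alpha subunit. It stood at 104, 121 and 112 CPM in control replicates 1 to 3 and at 115, 118 and 114 CPM in knockdown replicates 1 to 3. The groups overlapped, with means of 112 ± 8.12 and 116 ± 1.63 CPM (SD, n = 3 each). Its log2 fold change was 0.05 ± 0.116 (SE) without the block (adjusted p = 1) and 0.05 ± 0.065 with it (adjusted p = 0.68). GNAQ had the smallest SD between knockdown libraries of the 8 tested members.

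GNA11 (ENSG00000088256, chromosome 19, 3094410 to 3124004), the close paralogue of GNAQ, stood at 87.6, 118 and 118 CPM in control replicates 1 to 3 and at 70.1, 109 and 116 CPM in knockdown replicates 1 to 3. Replicate 1 was the lowest library of each group, and the groups overlapped. Its log2 fold change was -0.13 ± 0.235 (SE) without the block (adjusted p = 1) and -0.15 ± 0.073 with it (adjusted p = 0.21). Of its exonic bases 14.8% are shared with antisense genes, and since the strand setting of the counting is not given in the sources used here, part of its counts is uncertain.

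Per length the paralogues were nearly balanced. GNAQ made up 52.9%, 49.0% and 47.2% of the summed GNAQ and GNA11 FPKM in control replicates 1 to 3 and 60.8%, 50.4% and 48.1% in knockdown replicates 1 to 3. The control share averaged 49.7 ± 2.89% and the knockdown share 53.1 ± 6.75% (SD, n = 3 each), and the two-sided exact permutation p was 0.6. The share was higher in the knockdown in each pair, by 7.93, 1.38 and 0.92 percentage points, and an exact sign-flip permutation over the 3 pairs gave p = 0.25, the smallest it can give. Without knockdown replicate 1 the difference of 3.41 percentage points turned to -0.44. The hematopoietic-type subunit gene GNA15 took 25.1% to 34.8% of the 4 Gq-class alpha subunit genes, while GNA14 took at most 0.309%.

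PLCB4 (ENSG00000101333, chromosome 20, 9068763 to 9481242), the phospholipase C-beta isoform mutated in some uveal melanomas, had the largest difference of any member but did not pass. It stood at 409, 148 and 146 CPM in control replicates 1 to 3 and at 1168, 186 and 183 CPM in knockdown replicates 1 to 3. Replicate 1 was the high library in both groups, 2.77-fold above the next in controls and 6.27-fold in knockdowns. The groups overlapped, because control replicate 1 lay above knockdown replicates 2 and 3. Within pairs the knockdown was at 286%, 126% and 126% of its control. The log2 fold change was 1.13 ± 0.866 (SE) without the block (adjusted p = 1) and 0.74 ± 0.286 with it (adjusted p = 0.18). Without pair 1 it was 0.33 (adjusted p = 7.0e-15), and in replicates 2 and 3 alone with no block it was also 0.33 (adjusted p = 7.3e-09), where edgeR called 25.3% of all genes. The blocked fit without pair 1 called 4090 of 14836 genes. Both adjusted p-values rest on the small spread between replicates 2 and 3. Without knockdown replicate 1 and with no block it was -0.35.

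PLCB4 had the largest share of phospholipase C-beta FPKM in every library, by the widest margin in replicate 1. PLCB3 came closest to it in control replicate 3 (42.4% against 42.9%). PLCB4 took 58.0% of the FPKM of the 4 genes in control replicate 1 and 81.4% in knockdown replicate 1, and 42.9% to 48.5% in the other 4 libraries. PLCB3 stood at 32.6, 18.3 and 21.0 FPKM in control replicates 1 to 3 and at 27.8, 20.4 and 20.7 FPKM in knockdown replicates 1 to 3 (blocked log2 fold change -0.02, adjusted p = 0.92). PLCB2 had a blocked log2 fold change of 0.17 (adjusted p = 0.2), and PLCB1 took at most 0.529% of the family. The family sum was 100.6 and 200.2 FPKM in replicate 1 of controls and knockdowns, against 46.4 to 55.6 FPKM in the other 4 libraries.

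**Figure D2:**
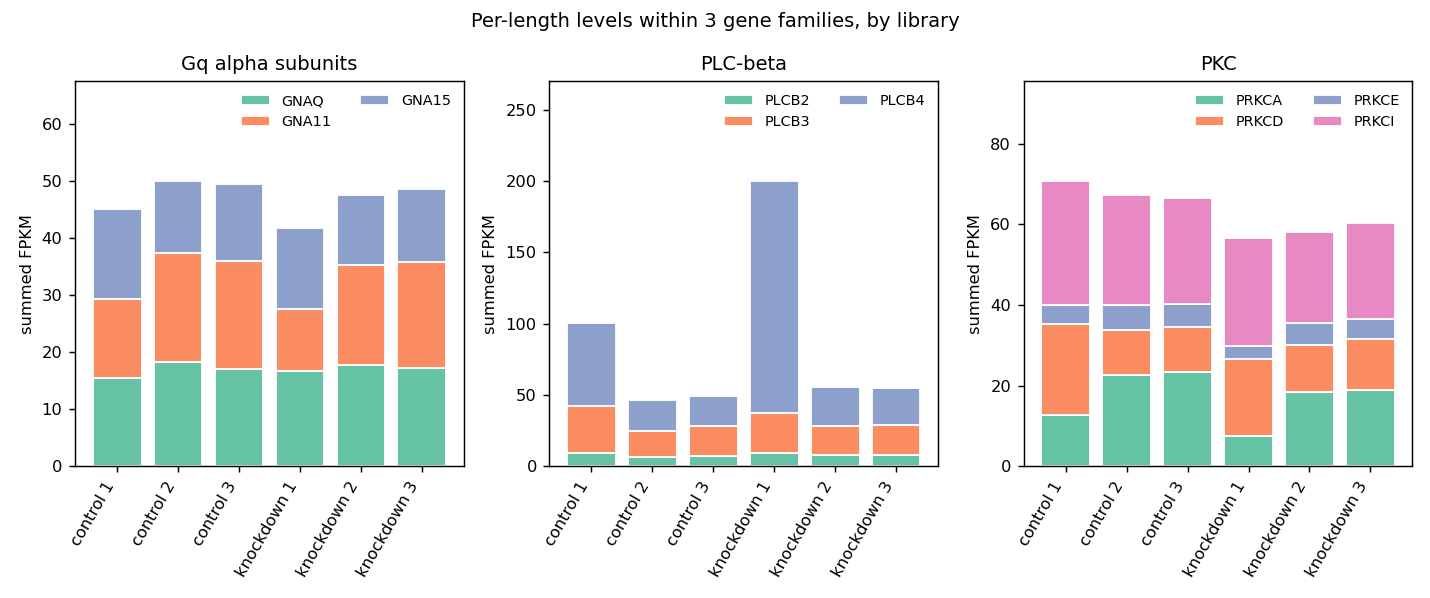
Deposited FPKM of the Gq-class alpha subunit, phospholipase C-beta and protein kinase C genes, stacked by gene for each of the 6 libraries (genes that stay under 3% of a family in every library are not drawn). PLCB4 fills most of the bar of knockdown replicate 1, and PRKCD is the larger and PRKCA the smaller in replicate 1 of both groups.

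The protein kinase C genes PRKCD and PRKCE, whose products transmit the diacylglycerol signal, did not pass. PRKCD (ENSG00000163932, chromosome 3, 53156009 to 53192717), the delta isoform, stood at 78.1, 38.3 and 38.0 CPM in control replicates 1 to 3 and at 67.4, 39.7 and 42.5 CPM in knockdown replicates 1 to 3. Both replicate 1 libraries were high and the groups overlapped. On the log2 scale the difference was -0.04 ± 0.364 (SE) without the block (adjusted p = 1) and -0.01 ± 0.087 with it (adjusted p = 0.97). Within pairs the knockdown was at 86.3%, 104% and 112% of its control.

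PRKCE (ENSG00000171132, chromosome 2, 45651345 to 46187990), the epsilon isoform that activates RASGRP3 in uveal melanoma cells, stood at 48.4, 60.5 and 54.9 CPM in control replicates 1 to 3 and at 33.5, 53.7 and 51.1 CPM in knockdown replicates 1 to 3. The knockdown library was the lower of each pair, though the groups overlapped. Its log2 difference was -0.24 ± 0.211 (SE) without the block (adjusted p = 1) and -0.26 ± 0.092 with it (adjusted p = 0.094). Among the 9 protein kinase C genes the atypical isoform PRKCI took 38.0% to 46.3% of the FPKM, PRKCA 12.8% to 34.3%, PRKCD 16.5% to 33.0% and PRKCE 5.62% to 9.07%. PRKCB had 0 counts in every library. PRKCA fell in the blocked fit, from a mean of 217 to 168 CPM (log2 fold change -0.43 ± 0.090 (SE), adjusted p = 0.018), with overlapping groups and an adjusted p of 1 without the block.

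TRIO (ENSG00000038382, chromosome 5, 14143702 to 14532128), the exchange factor at the head of the branch to focal adhesion kinase and YAP, was lower in every knockdown library than in any control library. It stood at 494, 501.5 and 519 CPM in control replicates 1 to 3 and at 407, 438 and 441 CPM in knockdown replicates 1 to 3. Group means were 505 ± 12.8 and 429 ± 19.0 CPM (SD, n = 3 each), so the knockdown held 84.9% of control. Its groups did not overlap, as held for 15.0% of all tested genes, and a two-sided exact permutation test gave p = 0.1, which is the lowest value possible with 3 libraries a group. The log2 fold change was -0.24 ± 0.116 (SE) without the block (adjusted p = 0.86) and -0.24 ± 0.055 with it (adjusted p = 0.025). The blocked call was lost when pair 2 (adjusted p = 0.17) or pair 3 (adjusted p = 0.19) was left out, with values that stayed between -0.26 and -0.19 over the 8 blocked fits. Its paralogue KALRN took at most 0.0601% of the FPKM of the 2 genes.

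Of 9093 protein-coding genes with a mean of at least 10 CPM, those whose log2 CPM followed TRIO most closely over the 6 libraries were GNB5, LRP12 and KDM2B. Pearson's r was 0.997, 0.996 and 0.995, and the 6 libraries of each gene share their groups and replicate numbers with TRIO. GNB5, a G protein beta subunit gene, was at 24.2, 25.2 and 26.8 CPM in control replicates 1 to 3 and at 15.3, 17.4 and 18.5 CPM in knockdown replicates 1 to 3. LRP12 averaged 59.6 CPM in controls and 30.5 CPM in knockdowns, and KDM2B 38.6 and 29.5 CPM. A link of these genes to TRIO was not tested.

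PTK2 (ENSG00000169398, chromosome 8, 140657900 to 141002216) encodes focal adhesion kinase, which acts downstream of TRIO on YAP. It stood at 235, 221 and 221 CPM in control replicates 1 to 3 and at 193, 199.9 and 205 CPM in knockdown replicates 1 to 3. The groups did not overlap, as for TRIO, and the two-sided exact permutation p was again 0.1. Control libraries averaged 226 ± 8.14 and knockdown libraries 199 ± 5.82 CPM (SD, n = 3 each), 88.4% of control. The log2 fold change was -0.18 ± 0.115 (SE) without the block (adjusted p = 0.99) and -0.18 ± 0.061 with it (adjusted p = 0.089), so it did not pass. It passed without pair 1 (-0.13, adjusted p = 0.0028), a fit in which edgeR called 4090 of 14836 genes. That p-value rests on the small spread between replicates 2 and 3. PTK2 took 89.0% to 97.5% of the FPKM that it shares with its paralogue PTK2B.

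ARF6 (ENSG00000165527, chromosome 14, 49893092 to 49897054), the small GTPase that recycles the receptor and alpha subunit, stood at 194, 216 and 215 CPM in control replicates 1 to 3 and at 129, 188 and 196 CPM in knockdown replicates 1 to 3. Knockdown replicate 1 was the lowest library, and the groups overlapped only through control replicate 1 and knockdown replicate 3. In log2 terms the difference was -0.28 ± 0.189 (SE) without the block (adjusted p = 1) and -0.30 ± 0.088 with it (adjusted p = 0.054), just short of the threshold. It passed in 4 of the 8 blocked fits, among them the fit without pair 1 (-0.17, adjusted p = 7.3e-05). That fit called 4090 of 14836 genes, and its p-values rest on the small spread between replicates 2 and 3. ARF6 took 12.6% to 18.5% of the FPKM of 5 ARF genes, below ARF1 (40.0% to 49.4%) and ARF4 (22.0% to 24.6%).

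**Figure D3:**
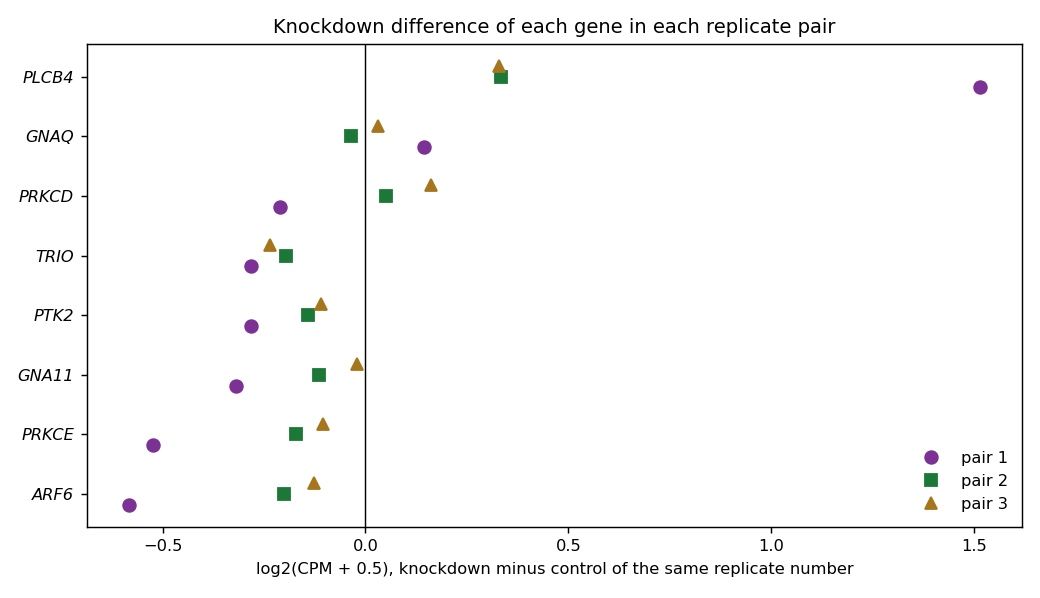
Knockdown minus control of the same replicate number on the log2(CPM + 0.5) scale, for each tested member and each of the 3 pairs. PLCB4 lies to the right of 0 and TRIO, PTK2, GNA11, PRKCE and ARF6 to the left of 0 in all 3 pairs, and pair 1 (circles) is the farthest from 0 in each of these 6 genes.

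The members also differed between replicates. In a fit with group and replicate 1 as terms, edgeR called 5 of the 8 members between replicate 1 and replicates 2 and 3, against 61.8% of all genes, with 2 higher (31.6% of all genes) and 3 lower (30.2%), so their share is near the background. PLCB4 was higher in replicate 1 by 2.12 ± 0.309 (log2, SE; adjusted p = 0.0078) and PRKCD by 0.88 ± 0.080 (adjusted p = 8.1e-07). GNA11 was lower there by a log2 fold change of -0.55 ± 0.071 (adjusted p = 1.9e-05), PRKCE by -0.44 ± 0.093 (adjusted p = 0.0012) and ARF6 by -0.35 ± 0.082 (adjusted p = 0.0025). GNAQ (-0.08), TRIO (-0.08) and PTK2 (0.01) did not pass, and both genes whose knockdown and control libraries did not overlap are among these 3. A replicate 1 difference widens both groups and makes overlap likelier, so this is partly built in.

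**Figure D4:**
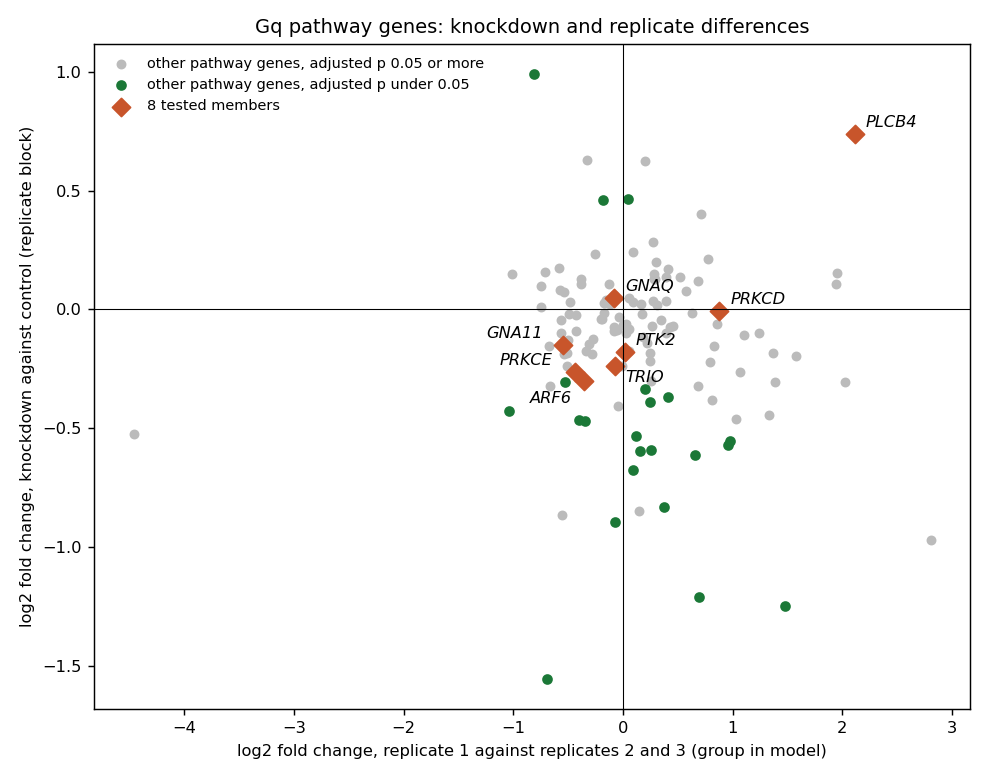
Log2 fold change of replicate 1 against replicates 2 and 3 (x axis) and of knockdown against control with the replicate block (y axis), for the 8 tested members (orange diamonds) and 123 other tested pathway genes (green where the knockdown adjusted p is under 0.05, grey otherwise). PLCB4 stands apart at the upper right, and most green points lie below 0. Over all tested genes 8.01% were called lower and 5.48% higher.

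Around the members, 147 other pathway genes on 6 lists were examined, of which 123 were tested. With the block 3 rose and 19 fell, 17.9% of those tested against 13.5% of all genes, and without it edgeR called 0. Their median blocked log2 fold change was -0.08. Of all genes 5.48% rose and 8.01% fell with the block, which is the background for each list below. Upper-quartile scaling with the block turned the split over all genes to 1198 rises and 986 falls, with a median of 0.05. The lists were not counted under that scaling. Values below are from the blocked fit, and edgeR's adjusted p without the block was over 0.5 for each of these genes.

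Of 26 genes for other Gq-coupled receptors 14 were tested, and 2 rose and 3 fell (median -0.39). The sphingosine 1-phosphate receptor S1PR3 fell from 4.93 to 1.65 CPM (-1.55 ± 0.268, SE; adjusted p = 0.0088). The thrombin receptor F2R (-0.68) and the nucleotide receptor P2RY2 (-0.59) fell, while the nucleotide receptor P2RY1 rose (0.47). The histamine receptor HRH1 (0.13) and the nucleotide receptor P2RY11 (0.40) did not pass. The other rise, LPAR3 (0.46), is a lysophosphatidic acid receptor gene named after its value was seen. The endothelin receptor EDNRB, a melanocyte-lineage receptor, had at most 2 counts in any library.

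Of 23 genes for G protein subunits, RGS proteins, PLC-beta enzymes and inositol trisphosphate receptors 20 were tested, and 1 rose and 4 fell (median -0.04). RGS2, which speeds GTP hydrolysis by Gq, rose from 3.29 to 6.42 CPM (0.99 ± 0.193, SE; adjusted p = 0.014). RGS17 fell (-0.83), as did the calcium release channel gene ITPR3 (-0.57, from 588 to 371 CPM with overlapping groups) and the receptor kinase GRK2 (-0.37). The groups overlapped for GRK2 as well. RGS3 (-0.34), named after its value was seen, completed the falls. The subunit genes GNB1 (-0.17) and GNG12 (0.18) did not pass.

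Of 20 genes for protein kinases C and D, diacylglycerol kinases and RasGRPs 15 were tested, and 0 rose and 1 fell, PRKCA (median -0.06). The kinase C substrate MARCKS (-0.19) and the diacylglycerol kinase DGKH (0.04) did not pass. Of 18 genes of the RAS to ERK cascade all 18 were tested, and 0 rose and 2 fell (median -0.06). MAPK3, which encodes ERK1, fell from 33.9 to 14.4 CPM (-1.21 ± 0.113, SE; adjusted p = 0.00067). The ERK substrate kinase RPS6KA1 fell from 41.8 to 22.6 CPM (-0.90). The groups overlapped for neither gene. The phosphatase PTPN11 (0.01) and the kinase MAP2K2 (0.03) did not pass.

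Of 32 genes for ARF GTPases and their exchange factors and GTPase-activating proteins 29 were tested, and 0 rose and 7 fell (median -0.09). The ARF6 exchange factors CYTH3 (-0.47, from 153 to 111 CPM) and PSD4 (-0.60) fell, as did the GTPase-activating protein genes ASAP2 (-0.56) and ASAP3 (-1.25, at 2.02 and 0.833 CPM). ARF3 (-0.47), IQSEC1 (-0.39) and ASAP1 (-0.31), named after their values were seen, completed the 7. The groups overlapped for ASAP1, ASAP2 and ASAP3, and ASAP3 had only 7 to 53 counts per library. ARF1 (0.05) and ARF4 (-0.02) did not pass. Between replicate 1 and replicates 2 and 3, edgeR called 16 of the 29 higher and 5 lower in replicate 1, against 31.6% and 30.2% of all genes, and the part of replicate 1 in the falls was not tested.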

How the data were processed

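Gene expression was read from the authors' deposited table of raw counts per gene and their deposited FPKM table for 3 control and 3 knockdown libraries. RNA was extracted with either of 2 kits and libraries were made with a SMARTER mRNA-seq kit, per the labels' protocols. Per the submitters' processing notes the genome was hg38, and the aligner, counter and strand setting are not given in the sources used here. Member coordinates and lengths in the table equal those of GENCODE. The 10 members and all lists were chosen with earlier results of these data known.

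Counts were tested with edgeR 4.0.16 (R 4.3.3): filterByExpr, TMM factors of 0.989 to 1.034, robust quasi-likelihood fits, Benjamini-Hochberg adjustment over 14844 genes, threshold 0.05. Only the main fits without and with the replicate block were checked on simulated data. The simulation for the fit without the block held no difference between replicates, unlike these data. CPM used TMM-scaled totals. SE is the log2 fold change divided by the root of F. Fits without and with the replicate number as a block left 4 and 2 residual degrees of freedom. Deviations from the group means correlated between libraries of the same number (across genes, r = 0.864, 0.697 and 0.685). Libraries of different numbers were not compared, and replicate 1 stood apart in both groups. The correlations therefore do not show that replicates 2 and 3 are paired by number, and the labels do not state a pairing. DESeq2 1.42.0 and limma 3.58.1 served as alternatives. All members, NELFCD, and per list up to 4 genes that passed the blocked fit at 1 CPM or more (largest change first) and 2 that did not (highest CPM first) are named. The 3 genes most like the member of smallest blocked p were taken by Pearson's r. The result of 1 pathway list and of 1 marker gene is not reported here. Of RGS5, which has 2 rows, the protein-coding row was used. Intervals and the 3-count limit cover counting error only, as reads carry no molecular identifiers.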

Additional observations from a re-analysis of the deposited data

Results flagged for a closer look

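The size of the knockdown difference itself differed between replicate 1 and replicates 2 and 3 for 3 members. This was tested by an interaction term of group and replicate 1 in edgeR, added after the data were seen, which was past the threshold for 13.0% of all tested genes. For PLCB4 the log2 fold change was larger in pair 1 by 1.18 ± 0.062 (SE; adjusted p = 4.8e-29), with a knockdown higher than its control in 3 of 3 pairs. For ARF6 the interaction was -0.42 ± 0.075 (adjusted p = 1.3e-05) and for PRKCE -0.39 ± 0.128 (adjusted p = 0.027), each with the knockdown lower in 3 of 3 pairs. The interaction was 0.15 for GNAQ (adjusted p = 0.32), -0.25 for GNA11 (0.062), -0.07 for TRIO (0.55), -0.32 for PRKCD (0.061) and -0.16 for PTK2 (0.15). Pair 1 is 1 library per group, and these p-values rest on the spread between replicates 2 and 3.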

How the results depend on the processing

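Without the replicate block edgeR called 0 genes and 0 members. The counts were also 0 and 0 with limma-voom, upper-quartile scaling, no filter, a mean of at least 5 CPM, log2 FPKM at a pseudocount of 1 or 0.1, and without each library in turn. DESeq2 without the block called 161 genes and 0 members. With the replicate block edgeR called 2002 genes and 1 member, DESeq2 1358 and 2, limma-voom 2110 and 1, upper-quartile scaling 2184 and 1, and no filter 2888 and 3. The blocked edgeR fit called 4090 genes and 4 members without pair 1, 932 and 0 without pair 2, and 1760 and 1 without pair 3. Replicates 2 and 3 alone, added after the data were seen, gave 3758 and 4. Upper-quartile scaling moved the blocked split from 813 rises and 1189 falls to 1198 and 986, and DESeq2 to 446 and 912; the median of all genes moved to 0.05 and -0.01.

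Signs turned for 4 members and 1 share. GNAQ was at 0.05 and ran from -0.007 to 0.098 when a library was left out, with -0.004 in the blocked fit without pair 1 and -0.003 in replicates 2 and 3. GNA11 ran from -0.275 to 0.058 and PLCB4 from -0.346 to 1.805 over left-out libraries. PRKCD ran from -0.329 to 0.387, with 0.002 in limma-voom, 0.006 with upper-quartile scaling, 0.042 with that scaling and the block, 0.107 in the blocked fit without pair 1 and 0.106 in replicates 2 and 3. The GNAQ share difference ran from -0.436 to 5.888 percentage points. TRIO, PTK2, PRKCE and ARF6 kept a negative sign in all 23 fits each. Of the 8 blocked fits TRIO passed in 6 (adjusted p from 1.7e-13 to 0.19), ARF6 in 4, and PLCB4, PRKCE and PTK2 in 1 each. Between replicate 1 and replicates 2 and 3, 5 members were called, 6 with no filter on low counts, and 5 with DESeq2, with upper-quartile scaling and without replicate 2 or 3. The cause of these changes was not tested. At these depths RASGRP3 (1 to 9 counts) and CYSLTR2 (0 counts) did not pass the filter.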
